A study of Homo sapiens with 4 samples.

Results

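The genes described here are the receptor chains and ligands of interleukin-4 and interleukin-13, namely IL13RA2, IL13RA1, IL4R, IL2RG, IL4 and IL13. They were chosen by name, with their expression in these cells already known, and make up 6 of the 57815 genes in the authors' table. RNA-Seq of total RNA was performed in MDA-MB-231, a human triple-negative breast cancer cell line, and in LM2-4175, a line isolated from it that metastasizes to the lung. Both lines were untreated and grown in the same serum-supplemented medium, with 2 libraries per line. The table combines the libraries of a line in 1 value, so each value below stands for 1 line without replicate error, and no difference between the lines has a replicate check. Each line is also a single model: what distinguishes these lines cannot be told apart from what distinguishes any pair of cultures.

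Interleukin-4 and interleukin-13 are the cytokines of type 2 immunity, made mainly by T helper, mast and innate lymphoid cells. Interleukin-4 binds the chain encoded by IL4R, which then pairs with the common gamma chain (IL2RG) in the type I receptor of blood cells or with the chain encoded by IL13RA1 in the type II receptor of many other cells. The type II receptor also binds interleukin-13, and both receptors signal through JAK kinases to STAT6. The product of IL13RA2 binds interleukin-13 with high affinity but has a short cytoplasmic tail and is often described as a decoy, although signalling through it has been reported in cancer cells. It is also known as a tumour antigen.

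The stretches before the RefSeq start sites of 3 receptor genes are shown first, because 2 chains with a level above 10 FPKM in both lines and 1 near 0 differed there in CG dinucleotides. RefSeq promoter entries (GRCh38.p14) matched 5 of the 6 genes by symbol, and IL13RA2 was the gene not matched. The 250 bases before the RefSeq start held 28 CG for IL13RA1, 35 for IL4R and 3 for IL2RG. The stretches below were found without mismatch in GRCh37, the build of the table, and trimmed to bases outside the exons of the gene itself. Trimming left 239 bases with 27 CG for IL13RA1, 105 bases with 17 CG for IL4R and 221 bases with 3 CG for IL2RG. The remaining CG of the 250 bases are not shown. GENCODE places the first base of each gene farther upstream, so the stretches lie inside the annotated genes: the RefSeq start follows the GENCODE gene start by 473 bases in IL13RA1, 306 in IL4R and 531 in IL2RG. They are chrX:117861326-117861564 on the plus strand for IL13RA1, chr16:27325139-27325243 on the plus strand for IL4R and chrX:70331457-70331677 on the minus strand for IL2RG. Capitals mark every CG, which reads the same on both strands.
IL13RA1: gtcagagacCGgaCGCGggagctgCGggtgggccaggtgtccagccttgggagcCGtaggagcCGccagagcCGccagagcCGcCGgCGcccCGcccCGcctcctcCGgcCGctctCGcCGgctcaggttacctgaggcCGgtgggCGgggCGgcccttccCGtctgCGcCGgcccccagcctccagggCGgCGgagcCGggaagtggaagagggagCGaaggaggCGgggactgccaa
IL4R: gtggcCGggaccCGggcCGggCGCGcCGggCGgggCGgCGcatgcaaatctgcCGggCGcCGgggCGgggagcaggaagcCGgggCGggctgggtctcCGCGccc
IL2RG: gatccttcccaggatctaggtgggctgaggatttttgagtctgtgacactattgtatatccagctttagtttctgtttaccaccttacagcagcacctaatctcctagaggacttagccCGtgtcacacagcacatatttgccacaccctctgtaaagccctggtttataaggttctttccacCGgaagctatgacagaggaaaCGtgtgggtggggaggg

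Of all 35116 promoter entries, 15.9% held at least as many CG as IL13RA1 and 5.80% at least as many as IL4R, whereas 29.3% held at most as many as IL2RG. The IL4 entry held 2 CG, and the entries of IL13, which has 2 start sites, held 31 and 5. Among 21117 entries with a gene in the table, the gene reached a mean of 0.5 FPKM over both lines in 65.6%. This share was 84.8% of the 4159 entries with at least as many CG as IL13RA1 and 31.3% of the 4120 entries with at most as many as IL2RG. The letters describe these windows only, and their part in the levels was not tested.

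IL13RA2 (ENSG00000123496, chromosome X of GRCh37, 114238538 to 114254540, minus strand) was the one receptor chain with a large difference between the lines. In MDA-MB-231 it had 0.0549 FPKM (the number of fragments relative to transcript length and to all mapped fragments), with authors' bounds of 0 to 0.167 FPKM. In LM2-4175 it had 51.0 FPKM, with bounds of 38.7 to 63.3 FPKM. The bounds lay far apart, and those in MDA-MB-231 included 0. Of all 57815 genes in the table, 68.5% had a lower level than IL13RA2 in MDA-MB-231, where 58.6% were listed at 0, and 96.5% had a lower level in LM2-4175. The gene passed the filter on low values (a mean of at least 0.5 FPKM, 13911 genes) only through its level in LM2-4175, where it was above 85.3% of the genes that passed. The ratio of the levels was 929, and the lower bound in LM2-4175 was still 232 times the upper bound in MDA-MB-231. No upper limit of the ratio can be given, because the lower bound in MDA-MB-231 was 0. On the scale of log2(FPKM + 1), used below for all changes, the difference was 5.62 (49.3-fold), which understates the change of a gene so low in one line. It was the 9th largest increase among the genes that passed the filter. No exon of another annotated gene overlaps the exons of IL13RA2.

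IL13RA1 (ENSG00000131724, chromosome X, 117861096 to 117928498, plus strand), the chain that binds interleukin-13 in the type II receptor, had nearly equal levels in both lines. It had 30.0 FPKM (bounds 23.1 and 37.0) in MDA-MB-231 and 29.3 FPKM (bounds 22.5 and 36.2) in LM2-4175, a ratio of 0.976. From the bounds, the ratio could lie between 0.608 and 1.57. The log2 change was -0.03, and it was 0.05 after the FPKM of each line had been rescaled to the same sum, so its direction was not determined. IL4R (ENSG00000077238, chromosome 16, 27324989 to 27376099, plus strand), the chain shared by both receptors, had 13.9 FPKM (bounds 9.49 and 18.3) in MDA-MB-231 and 22.6 FPKM (bounds 15.8 and 29.5) in LM2-4175. The level was 1.63 times as high in LM2-4175, with a log2 change of 0.67, but the bounds overlap and leave a ratio anywhere from 0.861 to 3.11. An antisense gene (ENSG00000274092) overlaps 5.59% of the exon bases of IL4R, and no source used here says whether strand was used in counting.

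IL2RG (ENSG00000147168, chromosome X, 70327254 to 70331958, minus strand), the common gamma chain of lymphocyte cytokine receptors, was near 0 in both lines. Its level was 0.205 FPKM (bounds 0 and 0.527) in MDA-MB-231 and 0.182 FPKM (bounds 0 and 0.540) in LM2-4175. Both lower bounds were 0, so neither level was separated from 0. Another annotated gene (ENSG00000285171) overlaps 51.3% of its exon bases. Of the ligands, IL4 (chromosome 5, 132009678 to 132018370) had 0.0255 FPKM (bounds 0 and 0.214) in MDA-MB-231 and was listed at 0 in LM2-4175. IL13 (chromosome 5, 131991955 to 131996802) was listed at 0 in both lines. An exact 0 in this table can be a failed estimate, so these genes are only said to be listed at 0, and no fold is given.

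**Figure D1:**
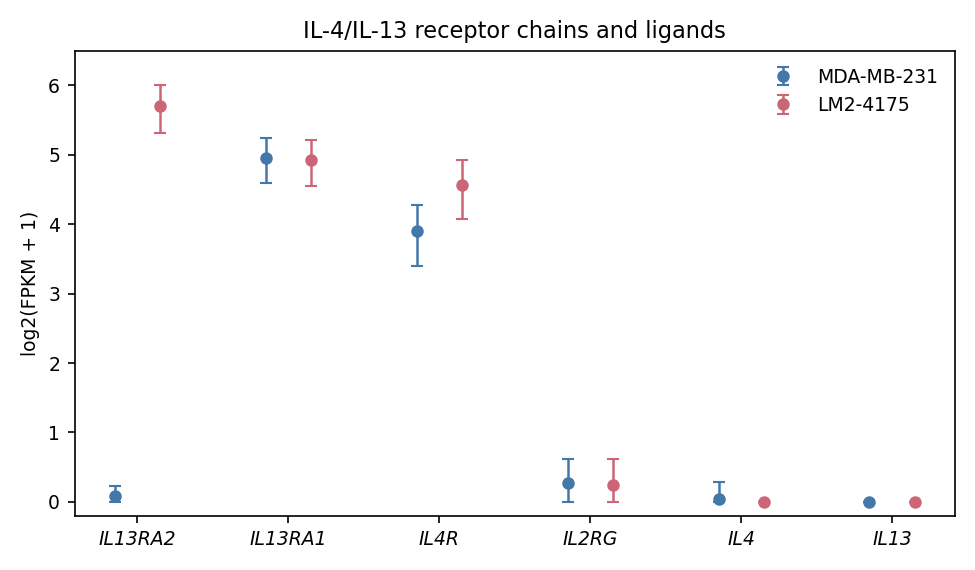
Levels of the 6 genes as log2(FPKM + 1) in MDA-MB-231 (blue) and LM2-4175 (red); points are the authors' values with the libraries of a line combined, and bars are the authors' lower and upper bounds. The bounds of IL13RA2 lie far apart (0 to 0.167 FPKM against 38.7 to 63.3 FPKM), those of IL13RA1 and IL4R overlap, and IL2RG, IL4 and IL13 lie at or near 0 in both lines.

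A call required a change of 1.5-fold or more on the log2(FPKM + 1) scale together with bounds that lay apart in the lines. IL13RA2, IL13RA1 and IL4R passed the filter on low values, and IL2RG, IL4 and IL13 did not. Of all 13911 genes that passed, 9.27% were called, 4.67% as higher and 4.61% as lower in LM2-4175. IL13RA2 was called higher, and the other members were not called. As the genes were chosen with these values known, nothing is read from that count. A change of at least 1.5-fold without regard to the bounds, as in IL4R, was found in 22.1% of the genes. In the plot of all genes, IL13RA2 stands at the left edge, far above the diagonal.

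**Figure D2:**
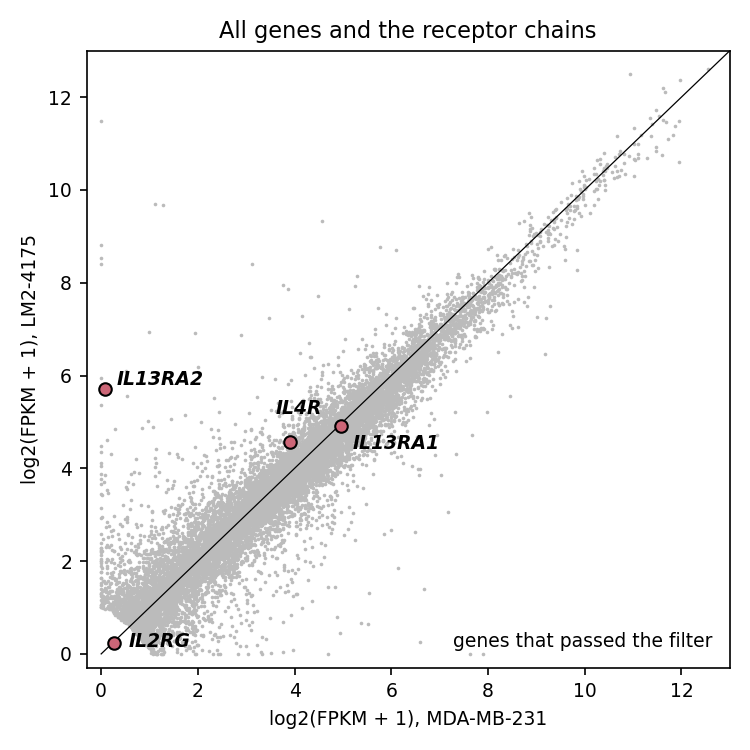
Level of each gene that passed the filter (grey, 13911 genes) as log2(FPKM + 1) in MDA-MB-231 (horizontal) and LM2-4175 (vertical), with equal levels on the line. IL13RA2 lies 5.62 above the line, IL4R 0.67 above it and IL13RA1 on it; IL2RG, which did not pass the filter, is drawn near the origin.

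The order of the receptor chains therefore differed between the lines, as FPKM is scaled by length and can be compared between genes. In MDA-MB-231, IL13RA1 was highest, at 2.16 times the level of IL4R, and these bounds were apart. IL2RG and IL13RA2 followed far below, and their bounds overlap, so their order is not resolved. IL13RA1 had 547 times the level of IL13RA2 in this line. In LM2-4175, IL13RA2 was highest, at 1.74 times the level of IL13RA1 and 2.25 times that of IL4R, with bounds apart from both. IL13RA1 and IL4R did not differ beyond their bounds there (ratio 1.29). Of the summed FPKM of the 4 chains, IL13RA2 held 0.124% in MDA-MB-231 and 49.4% in LM2-4175. The share of IL13RA1 was 67.9% and 28.4%, and that of IL4R 31.5% and 21.96%. These are shares of transcript levels, and receptor protein was not measured.

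The genes whose levels in both lines lay nearest to those of each chain were sought by the distance in log2(FPKM + 1), which here rests on 2 points per gene. For IL13RA2 the nearest were 2 small RNA genes listed at 0 in MDA-MB-231, a Y_RNA copy (61.1 FPKM in LM2-4175, distance 0.27) and RNU5E-6P (40.0 FPKM, distance 0.35). The next was PTGS2, the inducible cyclooxygenase, with 0.455 and 46.0 FPKM (distance 0.49). Nearest to IL13RA1 were FBXO9, PITPNA and PI4KB, all at a distance of 0.01, and nearest to IL4R were XIAP, CCDC91 and CTSS, at 0.05 or nearer after rounding. IL2RG lay at least 0.47 from any gene that passed the filter, as it did not reach the filter itself, and its nearest were RP11-73M18.9, DFNB59 and RPL38P4. By limits chosen after the values were seen, 7 genes were above 0 with an upper bound under 0.5 FPKM in MDA-MB-231 and had at least 10 FPKM in LM2-4175. IL13RA2 had the highest level of these in LM2-4175, followed by IL1A (27.9 FPKM), SERPINB2 (23.5 FPKM), BCL2A1, CD70, PTPRN2 and GALNT9. This place depends on the limits, which leave out genes listed at 0 in MDA-MB-231, such as the Y_RNA copy (61.1 FPKM in LM2-4175). In the opposite direction, 3 genes met the same limits.

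IL13RA2, IL13RA1 and IL2RG lie on chromosome X, where 390 protein-coding genes passed the filter, of which 35 were called higher and 43 lower. Their median log2 change was 0.10 (-0.05 over all 12082 protein-coding genes that passed). Of all 12082, 563 were called higher and 580 lower, which are smaller shares than on chromosome X in both directions. Within 1 Mb of IL13RA2, PLS3, which encodes an actin-bundling plastin, was the only one of 39 other table genes to pass the filter. It went from 137 to 194 FPKM (log2 change 0.50) and was not called. Within 1 Mb of IL13RA1, all 12 genes that passed were higher in LM2-4175, with a median log2 change of 0.38, while IL13RA1 itself was at -0.03. One of these 12, NKRF, a repressor of NF-kB-responsive promoters, was called, with 7.68 FPKM (bounds 5.71 and 9.65) in MDA-MB-231 and 13.1 FPKM (bounds 9.91 and 16.2) in LM2-4175. Near IL4R, 3 of 5 genes were higher and 2 lower (median 0.00), and near IL2RG 5 of 12 were higher and 7 lower (median -0.04), with no call. IL4 and IL13 share their neighbours. Of 18 that passed, 13 were lower and 5 higher, and the call among them was CSF2, which encodes GM-CSF. Over all genes that passed the filter, 9.27% were called.

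**Figure D3:**
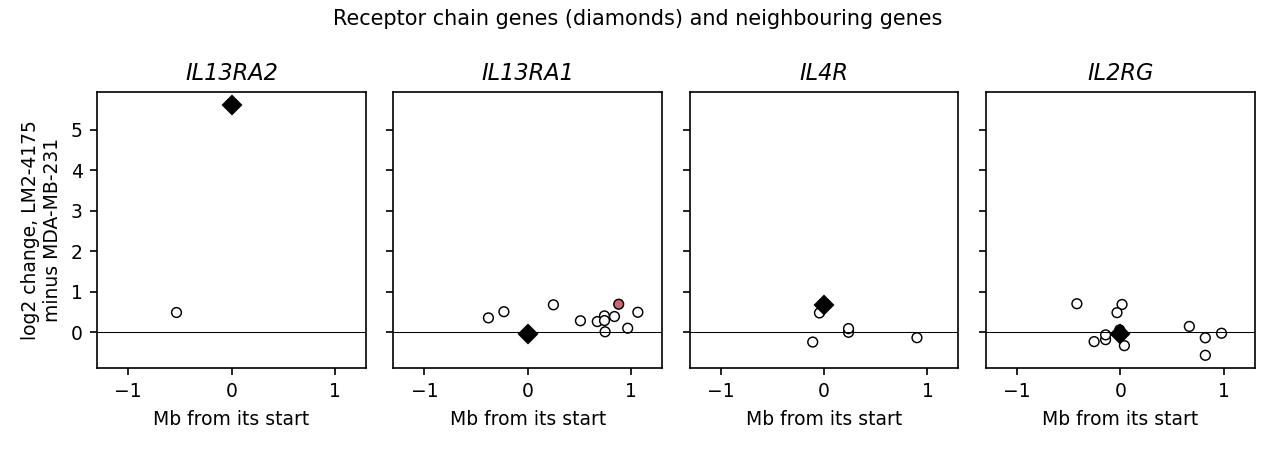
Log2 change (LM2-4175 minus MDA-MB-231) of genes within 1 Mb of each receptor chain gene, by the distance in Mb between start sites along the gene's own direction; open circles are genes not called, red circles genes called higher, and diamonds the receptor chain itself. IL13RA2 (5.62) stands alone above its 1 neighbour that passed the filter (0.50), and IL13RA1 (-0.03) lies below its 12 neighbours.

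The receptors that IL13RA2 belongs to by fold are the class I cytokine receptors, and 30 of their genes were put in order of level. IL13RA2 was number 17 in MDA-MB-231 and number 2 in LM2-4175, below IL6ST, the signalling chain of the interleukin-6 family (70.6 FPKM in MDA-MB-231 and 82.8 FPKM in LM2-4175). In LM2-4175 the bounds of IL13RA2 overlap those of IL6ST (43.6 to 122 FPKM) and of OSMR (27.3 to 51.2 FPKM), the oncostatin M receptor, so its place among the 3 highest is not resolved. Number 17 in MDA-MB-231 is not resolved either. There the bounds of IL13RA2 (0 to 0.167 FPKM) overlap those of other receptors near 0, such as IL6R (0 to 0.712 FPKM), which was number 14. IL13RA1 was number 3 and number 4, and IL4R number 5 in both lines. Of the 26 receptors other than the members, 12 passed the filter, with 7 higher and 5 lower. Of these 12, 2 were called higher and none lower (4.67% and 4.61% over all genes that passed), too few to read a result from. Their median log2 change was 0.12, against -0.04 over all genes that passed. The calls were IL2RB, the interleukin-2 receptor beta chain (0.489 FPKM with bounds of 0 to 1.06 in MDA-MB-231, 3.09 FPKM with bounds of 1.26 to 4.92 in LM2-4175), and IL6R (0.340 and 1.63 FPKM). The second was not called at a fold threshold of 2 or a mean of at least 1 FPKM. IL9R, IL3RA, CSF2RA and CRLF2 have copies on X and Y in the table, all listed at 0.

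**Figure D4:**
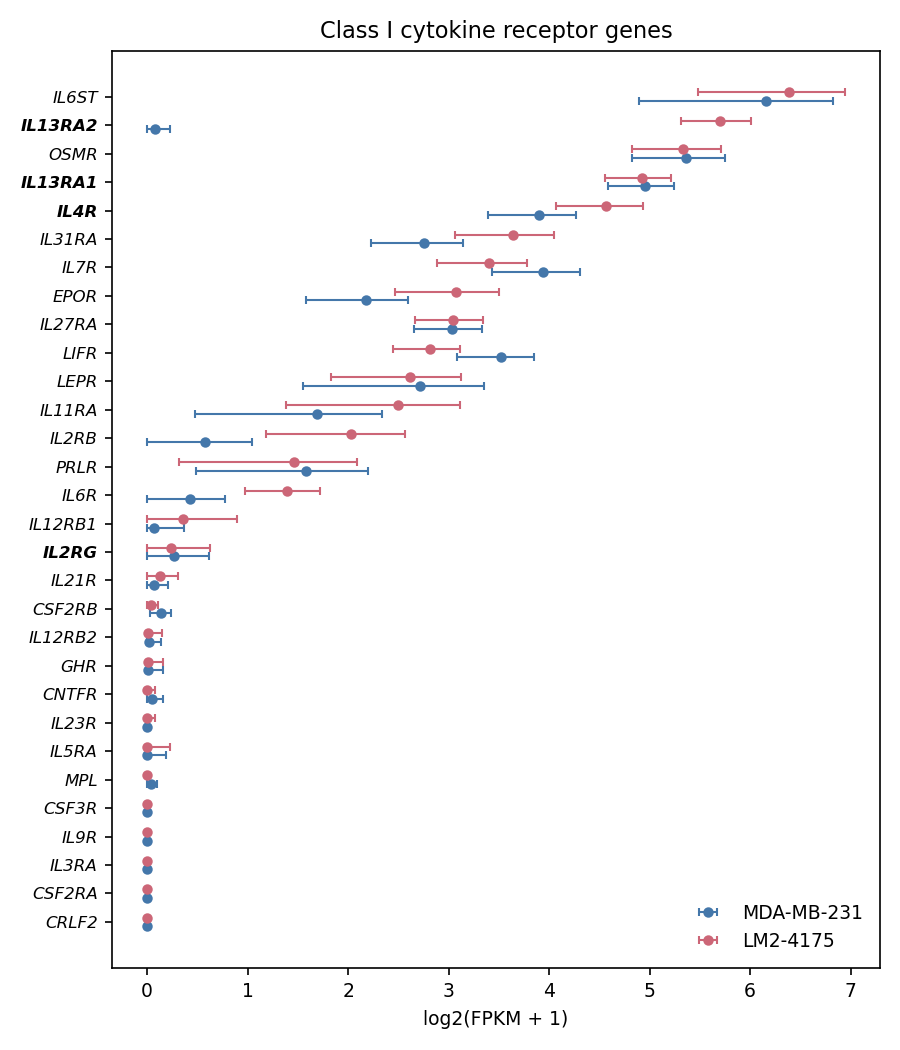
Levels of 30 class I cytokine receptor genes as log2(FPKM + 1) in MDA-MB-231 (blue) and LM2-4175 (red), ordered by the level in LM2-4175, with the authors' bounds as bars and the IL-4/IL-13 receptor chains in bold. IL13RA2 is number 17 in MDA-MB-231 and number 2 in LM2-4175, and its bounds overlap those of neighbouring receptors in both lines.

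Few of the cytokines and receptors that belong with the common gamma chain reached the filter. Of 13 genes in this list, 5 passed the filter, with 2 higher and 3 lower, and a median log2 change of -0.15. The list includes TSLP and its receptor chain CRLF2, which do not signal through IL2RG and were both under the filter. Of the 5 genes, 1 was called higher (IL2RB) and none lower (4.67% and 4.61% over all genes that passed). The highest was IL15RA, the interleukin-15 receptor alpha chain, at 18.3 FPKM (bounds 12.99 and 23.7) in MDA-MB-231 and 14.8 FPKM (bounds 10.3 and 19.2) in LM2-4175. IL7R had 14.3 and 9.57 FPKM, with overlapping bounds. IL2RB and IL7R are counted among the class I receptors above as well. The alpha chain of the interleukin-2 receptor, IL2RA, was listed at 0 in both lines.

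The signalling genes below the receptors mostly had overlapping bounds in the lines. Of 17 genes, 15 passed the filter, with 6 higher and 9 lower and a median log2 change of -0.12. One of the 15 was called, and it was lower (9.27% of all genes that passed were called, 4.61% as lower). STAT6, the transcription factor activated by interleukin-4 and interleukin-13, had 52.3 FPKM (bounds 32.9 and 71.8) in MDA-MB-231 and 58.7 FPKM (bounds 27.0 and 90.5) in LM2-4175. Its kinases JAK1 (43.2 and 34.5 FPKM) and TYK2 (37.5 and 54.1 FPKM) had overlapping bounds, and JAK3, which binds the common gamma chain, had 0.207 and 0.331 FPKM. The call was IRS2, an adaptor that couples the receptor chain of IL4R to PI3 kinase. It fell from 5.81 FPKM (bounds 4.36 and 7.25) to 3.36 FPKM (bounds 2.48 and 4.24), a log2 change of -0.64, and the call was lost at a fold threshold of 2 and after rescaling to the same sum. Its relative IRS1 had 16.2 and 16.3 FPKM. The largest change of the list was that of PTPN6, with a log2 change of -0.94 and overlapping bounds. It had 2.05 FPKM (bounds 1.02 and 3.08) in MDA-MB-231 and 0.585 FPKM (bounds 0.0662 and 1.10) in LM2-4175. PTPN6 was called lower only after quantile normalization and at 1.5-fold without the bounds. SHC1 was highest in the list, but its status in MDA-MB-231 was not OK, and its upper bound in MDA-MB-231 (54.3 FPKM) lay under its level (116 FPKM).

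Genes that STAT6 is known to induce in epithelial or blood cells did not move one way. Of 23 such genes, 15 were under the filter, 4 of them listed at 0 in both lines. Of the 8 that passed, 4 were higher and 4 lower, and the median log2 change was 0.03. Among these 8, 1 was called higher and 1 lower (4.67% and 4.61% over all genes that passed). MUC5AC, a gel-forming mucin, rose from 0.200 FPKM (bounds 0.0735 and 0.327) to 2.90 FPKM (bounds 1.96 and 3.84), a log2 change of 1.70. SPDEF, a transcription factor of mucus-secreting cells, fell from 9.20 FPKM (bounds 6.69 and 11.7) to 5.04 FPKM (bounds 3.53 and 6.55), a log2 change of -0.75, and was not called at a fold threshold of 2 or after rescaling. The highest was TGM2, transglutaminase 2, with 279 FPKM (bounds 212 and 347) and 312 FPKM (bounds 235 and 388). The chemokine CCL26 had 2.17 and 3.23 FPKM with overlapping bounds. The inhibitors SOCS1 (2.12 and 1.79 FPKM) and CISH (0.693 and 0.488 FPKM), which such signalling induces, also had overlapping bounds. Both are counted among the signalling genes above as well.

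The genes listed with the IL13RA2 protein, as ligands, partners or parts of its reported signalling, were mostly present in both lines. TGFB1 was counted in this list though it is not a binding partner, with 29.8 and 18.5 FPKM and lower bounds of 0 in both lines. Of 9 genes, 8 passed the filter, with 1 higher and 7 lower, and a median log2 change of -0.32. None was called, where 9.27% of all genes that passed were. CHI3L1, a chitinase-like protein that binds it as a second ligand, was the exception at 0.184 FPKM (bounds 0.0215 and 0.345) in MDA-MB-231 and 0.178 FPKM (bounds 0 and 0.359) in LM2-4175. TMEM219, a coreceptor for that ligand, had 57.3 and 64.0 FPKM, and FAM120A, a scaffold protein, had 84.3 and 63.4 FPKM. PTPN1, a tyrosine phosphatase, had 85.4 FPKM (bounds 64.4 and 106) and 57.8 FPKM (bounds 43.97 and 71.6), a log2 change of -0.56. The highest was the adhesion receptor CD44, with 470 and 355 FPKM. A list of 10 other genes held type 2 cytokines and alarmins with the receptor genes IL1RL1 and IL17RB and the transcription factor GATA3. Of these 10, 7 were under the filter, and IL5, IL33, TSLP and IL1RL1 each stayed under 0.05 FPKM in both lines. Of the 3 that passed, CSF2 and IL17RB were higher and GATA3 lower. CSF2 was called higher, from 10.1 FPKM (bounds 6.76 and 13.5) to 151 FPKM (bounds 115 and 187). Over all genes that passed, 4.67% were called higher.

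**Figure D5:**
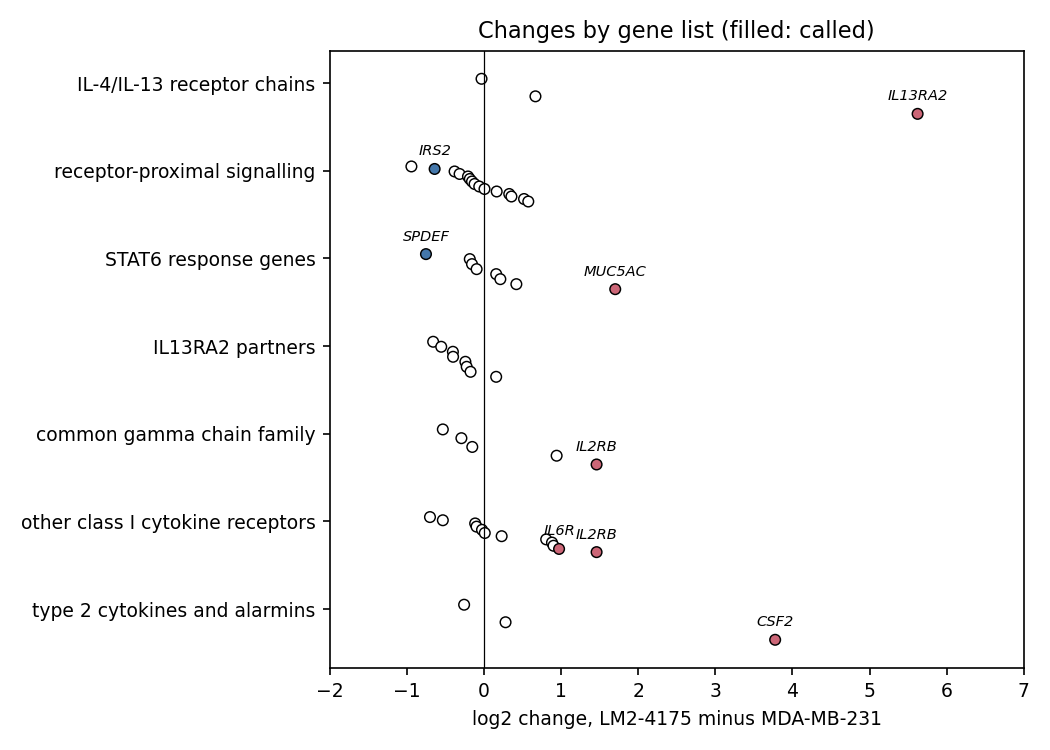
Log2 change (LM2-4175 minus MDA-MB-231) of the genes of each list that passed the filter, 1 point per gene and list, with genes called higher in red, genes called lower in blue and genes not called open. IL2RB, IL7R, SOCS1 and CISH each stand in 2 lists. IL13RA2 (5.62) lies beyond every gene of the other lists, of which CSF2 (3.78) comes next, and no gene of the list of IL13RA2 partners is filled.

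Facts of the whole table bear on these values as follows. The study states how many read pairs aligned in each library, but the table holds no read counts per gene, so precision is judged here by the bounds. Among genes that passed the filter and had a level above 0 in the line, the upper bound exceeded the level by a median of 38.6% (MDA-MB-231) and 38.1% (LM2-4175). For IL13RA2 it did so by 204% and 24.1%. The labelled cell type was checked by its markers: ESR1 and PGR, 2 of the genes behind the triple-negative label, were under 0.05 FPKM in both lines. ERBB2, the other gene, was not near 0, at 34.95 FPKM (bounds 20.9 and 49.0) in MDA-MB-231 and 22.8 FPKM (bounds 12.8 and 32.7) in LM2-4175. VIM was at 1355 and 1768 FPKM. KRT8 (626 and 180 FPKM), KRT18 (448 and 181 FPKM) and EPCAM (12.3 and 4.93 FPKM) were called lower in LM2-4175. Of 14 white blood cell markers, 12 were under the filter, 4 of these being listed at 0 in both lines, and none was called. Their summed level was 5.25 FPKM in MDA-MB-231 and 4.09 FPKM in LM2-4175. PTPRC, which defines white blood cells, had 0.0767 and 0.0263 FPKM, and CD3E was listed at 0. The highest marker was CSF1R in MDA-MB-231 (2.92 FPKM, against 0.790 FPKM in LM2-4175) and CD14 in LM2-4175 (1.75 FPKM, against 1.17 FPKM in MDA-MB-231). The libraries of a line could not be compared with each other in this table.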

How the data were processed

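RNA-Seq was performed on LM2-4175 and MDA-MB-231, with 2 libraries for each. The authors aligned paired reads to hg19 with TopHat2, quantified GENCODE genes with Cufflinks and compared the lines with Cuffdiff, and deposited 1 FPKM per gene and cell line flanked by lower and upper bounds, and a status code. How library sizes were scaled, whether strand was used and what the bounds cover are not given in the sources used here. Combining the libraries leaves no value per library. For this reason limma, planned for values per library, was not run, and neither was a fit with the replicate number as a block. No p-value was computed.

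Changes are the difference of log2(FPKM + 1), LM2-4175 minus MDA-MB-231. Genes whose status was OK for both lines and which had a mean of at least 0.5 FPKM passed the filter, and a gene was called at 1.5-fold or more with bounds that did not overlap. This compares pooled libraries, not replicates. The members and lists were chosen with earlier results of these data known. Named were the members, in each list up to 5 called genes and the highest, the 3 genes nearest to each receptor chain, and called genes within 1 Mb. Other genes were named after their values were seen. Alternatives were another pseudocount, rescaling to TPM, quantile normalization, other call rules and other filters. Positions and exon overlaps are from GENCODE 44 on GRCh37, and sequences from RefSeq. Python 3.11.15, NumPy 2.4.6, pandas 2.3.3 and Matplotlib 3.10.9 were used. The call rule was tested on simulated data with bounds of a set meaning and changes well above 1.5-fold. That test cannot show how the rule performs on the authors' bounds, because what these cover is not given.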

Additional observations from a re-analysis of the deposited data

How the results depend on the processing

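IL13RA2 was called higher in LM2-4175 under all 8 alternatives, with a log2 change of 5.62 to 8.37, the latter with a pseudocount of 0.1 FPKM. IL13RA1 and IL2RG were called under none. The change of IL13RA1 turned from -0.03 to 0.05 with both rescaling to TPM and quantile normalization. IL4R was called only at 1.5-fold without the bounds (0.67), where the genes called rose from 649 higher and 641 lower to 1434 and 1640, and the pathway genes called from 4 higher and 2 lower to 8 and 5. At 2-fold with the bounds, 403 genes were called lower, and no pathway gene was. After rescaling to TPM 0 pathway genes were called lower. The causes were not tested beyond what each rule changes by construction. The rule of bounds without a fold, and both rescalings of the IL4 and IL13 levels, were chosen after seeing the data. No paired analysis was possible because the table holds 1 value per cell line, and for the same reason no library could be left out. Levels whose lower bound is 0, such as IL2RG, were not separated from 0 at this depth.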
